A study of Mus musculus with 7 samples.

Results

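The subject is the group of ETS transcription factor genes other than Erg and Fli1, with 10 members: Ets1, Ets2, Elf1, Elf2, Elf4, Etv6, Gabpa, Elk3, Etv5 and Ehf. They were chosen by name, and each was given a window of its GENCODE M21 gene body (mm10) plus 40 kb on either side. Of 144931 merged open chromatin regions (OCRs) in the series, 289 lay in the 10 windows. The data were 7 bulk ATAC-seq libraries, called HPC7-1, HPC7-2, HPC7-4, HPC7-5, HPC7-6, HPC7-7 and HPC7-8, of HPC7, a mouse hematopoietic progenitor cell line grown with stem cell factor. ATAC-seq uses the transposase Tn5 to tag accessible DNA, and an OCR is a peak of such tags. All libraries carried the same labels and formed 1 group, since the labels name no treated or control samples. The libraries came from independent culture batches according to the study, which the labels do not state. The prefix EtOH opens the peak names of HPC7-5 through HPC7-8, whereas the remaining 3 libraries use the prefix VD. Neither the labels nor the study's text explain these prefixes, so whether all libraries were treated alike is not known, and they were not used as groups.

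ETS factors share a winged helix-turn-helix domain that contacts a GGAA core in DNA. The family holds activators, repressors and members that switch between these roles after phosphorylation by MAP kinases. Several of them act in blood stem and progenitor cells, where ETS sites often lie beside RUNX and GATA sites, and others are best known from epithelium.

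Peak lists held 84593 to 132852 OCRs per library. Peak intensity is the fold enrichment given by the peak caller, that is, the pileup at the summit over a single background per library, and the background was 4.44 to 7.45 reads in 6 libraries and 20.4 reads in HPC7-1, the library with most OCRs. An intensity percentile is the place of an OCR among all OCRs of the same library. An OCR within 3 kb of a transcript start of the member is called promoter here, also where a start of another gene is as near. Those within 3 kb of a start of another gene alone form their own class. The remainder are exonic or intronic inside the member's body and distal outside it. Only this remainder is called non-promoter, so that an OCR at the start of another gene alone is in neither set. Every one of 9 blood progenitor genes (Kit, Cd34, Ptprc, Spi1, Gata2, Tal1, Lyl1, Lmo2 and Runx1) had a promoter OCR among the most intense 25% of all 7 libraries. Of 8 epithelial genes, 2 had a promoter OCR in all 7 libraries and 0 had one among the most intense 25% throughout. Of 5 T lymphocyte genes measured, Cd3d alone had a promoter OCR in all 7 libraries, and it was among the most intense 25% in each.

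All 10 members had a promoter OCR in 7 of 7 libraries, compared with 61% of 21951 protein-coding genes. For 9 of the 10, all but Ehf, it ranked among the most intense 25% of OCRs in every library, against 50.6% of protein-coding genes. A gene counts through its best OCR over all its starts, and the members had 2 (Elf4) to 13 (Elf2) annotated starts each. What part the number of starts has in these shares was not tested. Mean intensity of the strongest promoter OCR ran from 243 at Etv5 down to 8.19 at Ehf. Between them came Elf2, Gabpa, Etv6, Ets1, Elf1, Ets2, Elf4 and Elk3, in that order. Neighbours in this order were not always distinct. Elf2 exceeded Gabpa in 5 of 7 libraries, with a log2 ratio of 0.08 ± 0.14 (SD, n = 7). Ets1 exceeded Elf1 in 6 libraries, with a log2 ratio of 0.11 ± 0.19. Ets2 exceeded Elf4 in 3 libraries, with a log2 ratio of 0.04 ± 0.11. The other 6 neighbouring pairs kept their order in 7 of 7 libraries, the widest gap being 2.72 ± 0.21 on the log2 scale between Elk3 and Ehf. HPC7-6 gave the lowest intensity at the promoter of each of the 10 members. Among all 21951 protein-coding genes, ranked by their strongest promoter OCR with genes lacking one counted lowest, Etv5 stood at a mean percentile of 98.9, Elf2 at 94.1, Gabpa at 92.5 and Etv6 at 88.4. Ets1 and Elf1 stood at 78.0 and 75.2, Ets2, Elf4 and Elk3 at 68.9, 68.0 and 59.7, and Ehf at 42.9. The members thus ran from the top of this ranking to just below its middle. The lowest places are held by the 32% of genes without a promoter OCR in any library, so Ehf stood low among genes that have one.

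**Figure D1:**
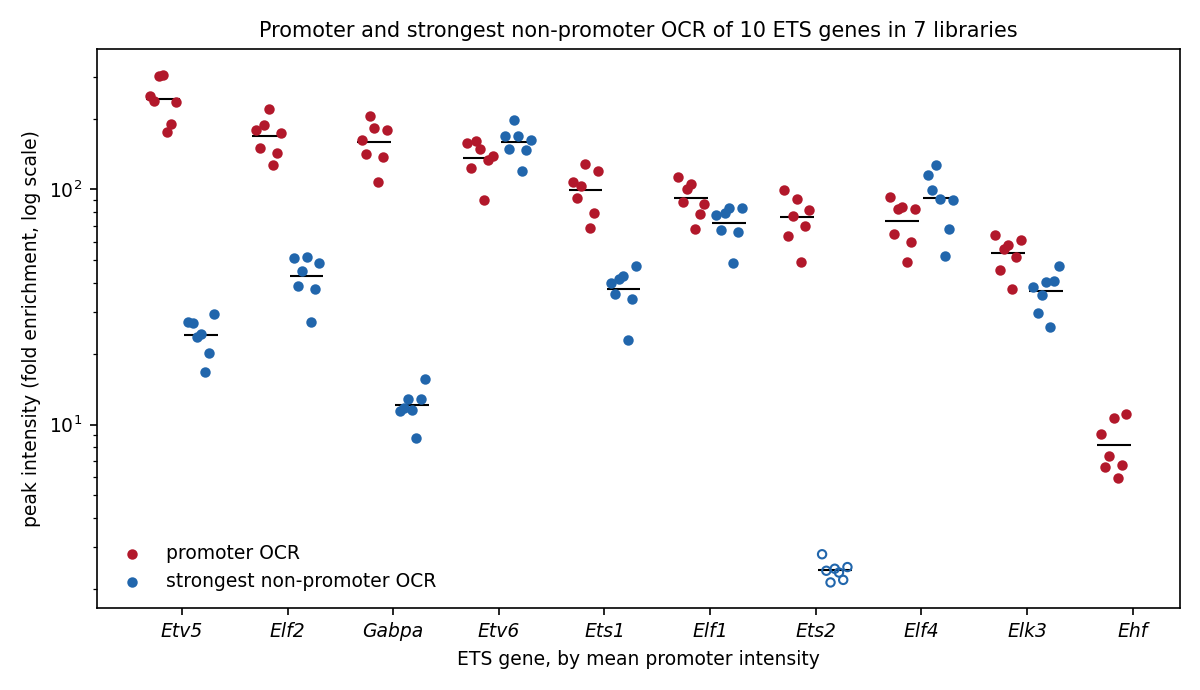
Peak intensity (fold enrichment, log axis) of the strongest promoter OCR (red) and the strongest non-promoter OCR (blue) of each ETS gene, 1 point per library (n = 7) with a line at the mean. Blue lies above red at Etv6 and Elf4, open points at Ets2 mark an OCR listed in 2 libraries and set to the lowest listed value in the other 5, and Ehf has no non-promoter OCR.

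Ets1 and Ets2, the founding members of the family, are activators phosphorylated downstream of MAP kinases, and Ets1 is known for its part in lymphocytes. Ets1 (chr9:32636221-32757820, plus strand) has 6 annotated starts. No library listed an OCR over the first 2, at 32636221 and 32636239. The only promoter OCR of the gene, chr9:32695188-32697106, covered the other 4, the nearest of which begins 59801 bp further downstream. Its intensity was 68.8 at the lowest, 104 at the median and 128 at the highest, or percentiles 94.2 to 96.9. The peak lists of Ets1 thus covered its internal starts and not its first ones. The strongest OCR of the window away from every start lay 28.7 kb upstream at chr9:32607117-32607898, with 22.8 at the lowest, 40.2 at the median and 47.2 at the highest. These ranges did not overlap. An OCR at the start of another gene, Gm27240, 74.2 kb into Ets1, was stronger than the latter, with 35.4 to 65.4.

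Ets2 (chr16:95702075-95721051, plus strand) had 3 OCRs in its window, the joint lowest number with Ehf. The OCR over its first 3 starts, chr16:95701617-95703509, ranged from 49.1 through a median of 77.3 to 99.0. A second promoter OCR near the internal starts, 11.2 kb into the gene, was weak in all libraries, between 4.69 and 9.22. The remaining OCR lay 27.0 kb from the start, was listed in 2 of 7 libraries and reached 2.81. Ets2 therefore had a strong promoter with few other listed OCRs within 40 kb, while flanks of 100 kb held 15 OCRs in all.

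The ELF factors are activators of lymphoid and myeloid genes. Elf1 is broadly present in blood cells, Elf2 can bind Runx1, and Elf4 is known for its role in stem cell quiescence and natural killer cell development. All of them had strong OCRs at more than 1 group of starts. At Elf2 (chr3:51252720-51340663, minus strand) the OCR over 6 internal starts, chr3:51275030-51278157, ranged from 127 to 220 with a median of 173. The OCR over the first starts, chr3:51339409-51342891, ranged from 82.1 to 115 with a median of 101. The internal OCR was higher in 7 of 7 libraries, with a log2 ratio of 0.76 ± 0.17 (SD). It also lies within 3 kb of a start of 4930577N17Rik, so the signal cannot be assigned to Elf2 alone.

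Elf4 (chrX:48411046-48463132, minus strand) showed the same order. Its internal promoter OCR, chrX:48451464-48455616, was 49.1 at the lowest, with a median of 82.2 and a highest value of 92.9. The OCR at the first start, chrX:48462210-48463866, had 32.9, 57.6 and 65.5. The internal OCR was higher in 7 of 7 libraries, by 0.47 ± 0.18 on the log2 scale, the smallest difference being 0.10. Elf1 (chr14:79481194-79582494, plus strand) went the other way. Its first start, in an OCR shared with the start of Wbp4 at chr14:79480386-79484127, had intensities of 67.7 to 113 with a median of 88.7. The OCR over the starts that begin 34480 bp downstream, chr14:79514994-79517892, had 39.0 to 60.4 with a median of 50.1. The ranges were separate, and the log2 ratio was 0.86 ± 0.15 in favour of the first start.

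Etv6, a repressor that is needed by blood stem cells in bone marrow and is a partner in leukaemia fusions, had the fullest window. Its 108 OCRs stood against a median of 12 over the windows of all protein-coding genes. With the same 84593 most intense OCRs taken from every library, the window held 65. The gene is long (chr6:134035700-134270158, plus strand), but per 100 kb of window its 34.3 OCRs also exceeded the median of 10.3 and stood at the 98.1 percentile. Of the 108, 76 were intronic, and 25 of those were listed in all 7 libraries, against 41.9% of all OCRs away from starts. In the whole window 38 were listed in all 7 (35.2%, against 46.2% of all merged OCRs), and 22 appeared in 1 library. The promoter OCR, chr6:134034170-134039860, ranged from 89.8 through 139 to 161. The OCR 150.7 kb into the gene, chr6:134185094-134187737, ranged from 120 through 163 to 197. It was the most intense non-promoter OCR of all 10 windows, at percentiles 97.7 to 99.1, and in each library it exceeded the Etv6 promoter. The RefSeq annotation, unlike GENCODE M21, places the start of a predicted noncoding RNA, Gm52920, inside this OCR at 134186513 on the opposite strand. A further intronic OCR 191.1 kb into the gene, chr6:134225891-134227769, ranged from 66.5 to 104. The reference sequences of the Etv6 promoter and of both intronic summits are given because the ranking of this gene turns on them. They are on the plus strand, without any annotated exon, from chr6:134035450-134035699, chr6:134186514-134186668 and chr6:134226814-134227014 (GRCm38.p6, RefSeq). Capitals mark the ETS core GGAAGT, the SP/KLF letters GGGCGG and the GATA letters AGATAA, on either strand.
Etv6 promoter: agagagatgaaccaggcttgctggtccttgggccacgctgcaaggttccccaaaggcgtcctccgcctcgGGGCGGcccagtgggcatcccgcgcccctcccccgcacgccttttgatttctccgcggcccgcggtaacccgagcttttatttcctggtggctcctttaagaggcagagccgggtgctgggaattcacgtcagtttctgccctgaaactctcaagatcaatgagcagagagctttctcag
Etv6 intronic OCR at 150.7 kb: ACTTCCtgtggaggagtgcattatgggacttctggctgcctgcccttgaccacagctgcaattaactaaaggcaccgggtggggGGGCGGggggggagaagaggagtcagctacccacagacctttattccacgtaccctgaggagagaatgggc
Etv6 intronic OCR at 191.1 kb: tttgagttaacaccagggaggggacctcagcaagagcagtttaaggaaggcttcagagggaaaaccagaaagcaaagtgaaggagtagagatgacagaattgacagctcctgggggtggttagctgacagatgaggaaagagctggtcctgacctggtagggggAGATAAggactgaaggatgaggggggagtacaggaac

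Gabpa encodes the DNA-binding subunit of GABP, which activates housekeeping and mitochondrial genes together with a beta subunit. Gabpa (chr16:84834925-84863779, plus strand) had 9 OCRs in its window. Its promoter OCR, chr16:84833985-84836600, covers the shared start region with the neighbouring gene Atp5j and ranged from 107 through 162 to 204. Inside the gene body away from starts there was 1 OCR, listed in 2 libraries. The strongest non-promoter OCR, 44.5 kb from the start at chr16:84879119-84879800, ranged from 8.76 to 15.6.

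Elk3 is a ternary complex factor that binds DNA with SRF and represses until MAP kinase signals reach it. Its promoter OCR (gene chr10:93247414-93311135, minus strand), chr10:93308470-93312312, had intensities of 37.5 at the lowest, 56.0 at the median and 64.1 at the highest. The intronic OCR 16.2 kb into the gene, chr10:93294389-93295580, had 26.0, 38.6 and 47.0. The ranges overlapped across libraries, while within each library the promoter was the higher. A distal OCR 82.6 kb from the start, in the body of Cdk17 at chr10:93227840-93229158, ranged from 28.5 to 45.3.

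Etv5, of the PEA3 group, is an activator known from the self-renewal of spermatogonial stem cells. It had the most intense promoter OCR of the 10 genes. At Etv5 (chr16:22381309-22439719, minus strand) the OCR over the first 3 starts, chr16:22438076-22441437, ranged from 175 through 238 to 308, percentiles 99.7 to 99.8. The OCR 3.3 kb downstream, chr16:22435936-22436923, ranged from 33.6 to 52.5. It covered a start of its own and was 2.40 ± 0.18 lower on the log2 scale. The strongest non-promoter OCR of Etv5 lay in an intron 7.8 kb into the gene, at chr16:22431296-22432519, and ranged from 16.7 through 24.4 to 29.4.

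Ehf, an ETS factor of epithelial cells, stood apart. Of its 8 annotated starts (gene chr2:103263433-103303278, minus strand), 1 internal start was covered, in 7 of 7 libraries, and the 5 that lie upstream of it were covered in 0 libraries. That OCR, chr2:103290725-103291199, had a lowest intensity of 5.94, a median of 7.34 and a highest of 11.1. This corresponded to summit pileups of 35 to 193 reads and percentiles of 47.6 to 67.3. Its highest value lay below the lowest value of every other member's strongest promoter OCR. The window held 2 more OCRs, both classed as promoter, 1 in HPC7-1 only and 1 in 3 libraries. There was no exonic, intronic or distal OCR.

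The other promoter OCRs listed in all 7 libraries had low to moderate intensities. At Elf1 they lay 33.0 and 37.9 kb into the gene, with mean intensities of 5.74 and 13.3. At Elf2 they lay 60.7 (also within 3 kb of a start of 4930577N17Rik), 13.3 and 2.0 kb into the gene, with means of 5.69, 13.5 and 6.80. The strongest of these at Elf1 and at Elf2 had mean percentiles of 70.4 and 70.6. They were among the top 25% in 3 libraries and in 1 library, respectively. Elf4 had 1 at 6.0 kb with a mean of 4.92, and Etv6 had 1 at 212.7 kb with a mean of 5.38, also within 3 kb of a start of 1700051K13Rik. Each was well below the strongest promoter OCR of its gene.

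Over all members, 35 of 57 annotated starts lay in an OCR listed by all 7 libraries, and 22 lay in none. The same share over all 132758 transcript starts was not determined, so whether this count is unusual was not tested. Uncovered starts were internal ones at Gabpa, Etv6, Ets2, Elf2, Elk3 and Etv5, and included the first start at Ets1 and Ehf.

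**Figure D2:**
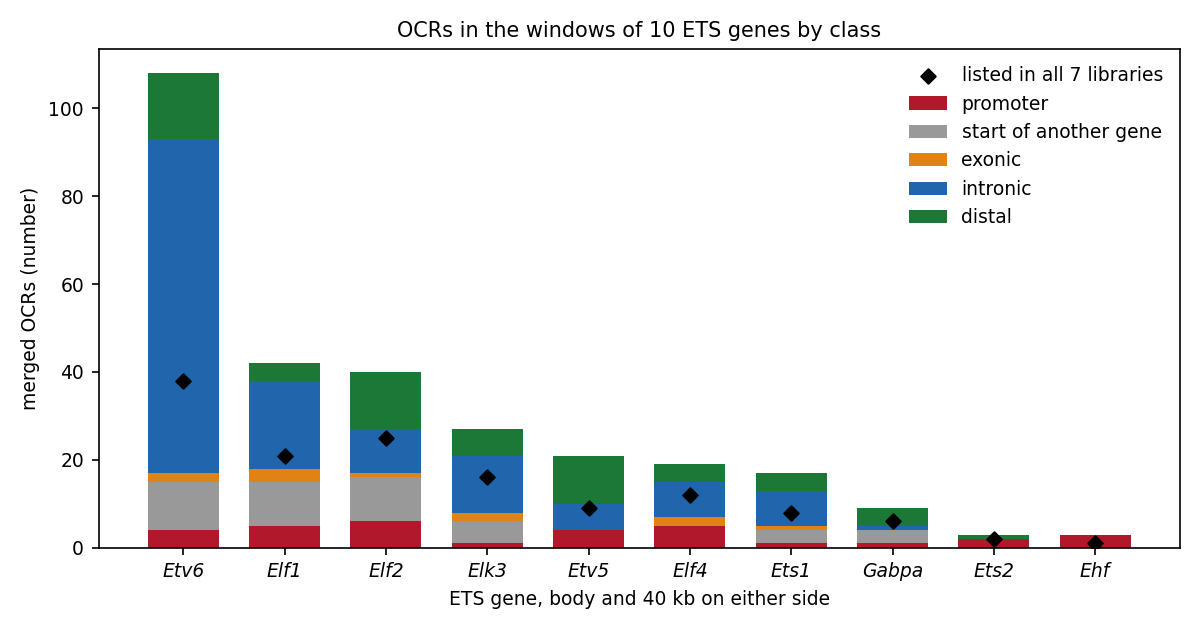
Number of merged OCRs in the window of each ETS gene, stacked by class, with a diamond at the number listed in all 7 libraries. Etv6 holds 108, mostly intronic, while Ets2 and Ehf hold 3 each.

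To ask whether the promoter or an element away from it was the more accessible, the promoter OCR was compared with the strongest non-promoter OCR of the same window in each library, for all 14502 protein-coding genes that had both. OCRs shared by a start of the member and a start of another gene entered as promoter, as at Elf1, Elf2 and Gabpa. OCRs at starts of other genes alone did not enter, although some were stronger than the member's promoter on average. The OCR at the start of Sugt1 in the Elf1 window had a mean of 104 against 91.6, and that of Gm17745 in the Elk3 window 71.5 against 53.4. These OCRs and that of Gm27240 were picked out after their values were seen. The test was an exact two-sided sign-flip permutation test, for which 7 libraries allow no p below 0.0156, with Benjamini-Hochberg adjustment over all genes. The promoter was higher at 7 of 9 members tested, against 69.1% of all genes. The non-promoter OCR was higher at 2 of 9, against 23.8% of all genes. Members thus divided much as all genes did. Since both directions were common, the sizes tell more than the calls. Each of the 9 had 1 sign in 7 of 7 libraries, with an exact p of 0.0156 and an adjusted p of 0.0172 in this permutation test. The signs were therefore the same within the libraries of either peak name prefix.

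The members formed a graded series. At Elf4 the log2 ratio of promoter to strongest non-promoter OCR was -0.29 ± 0.24 (SD, n = 7). The OCR concerned lay in an intron 29.3 kb into the gene, at chrX:48432861-48434804, and ranged from 52.1 through 91.3 to 128. The ratio at Etv6 was -0.23 ± 0.10, for the intronic OCR at 150.7 kb. If OCRs within 3 kb of a RefSeq start are also set aside, that OCR drops out, the one at 191.1 kb takes its place and the ratio becomes 0.60 ± 0.12, in favour of the promoter in 7 of 7 libraries. The Elf4 value did not move under this change. Elf1, with an intronic OCR 49.1 kb into the gene at chr14:79529544-79530980 and with intensities of 48.5 to 83.3, had 0.34 ± 0.16. The Elf1 promoter value is that of the OCR shared with the start of Wbp4. The promoter OCR over the later Elf1 starts had a mean of 50.5, below the 72.3 of the intronic OCR. Elk3 had 0.54 ± 0.14. These 4 genes had an intronic OCR that exceeded the promoter or came close to it. With GENCODE starts Elk3 was the widest case, with a promoter 1.45-fold higher, and with RefSeq starts added it was Etv6.

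At the other members the promoter led by more in these windows. Ets1 had a log2 ratio of 1.41 ± 0.14, but this depends on the window. With flanks of 100 kb it fell to 0.20 ± 0.07, below Elf1 and Elk3, as an OCR with a mean intensity of 86.3 came into reach, and with flanks of 20 kb it was 2.05 ± 0.34. Elf2 had 1.98 ± 0.15 over a distal OCR 24.7 kb upstream, at chr3:51364746-51366054, which ranged from 27.4 to 51.5. The Elf2 promoter value is that of the OCR shared with 4930577N17Rik, with a mean of 168. The OCR over the first Elf2 starts had a mean of 98.2, against 42.8 for the distal OCR. Etv5 had 3.33 ± 0.26 and Gabpa 3.71 ± 0.23. The 4.96 ± 0.30 at Ets2 rests on an OCR listed in 2 libraries, so that in the other 5 it is a lower bound, and with those 5 left out the value was 5.10 with an exact permutation p of 0.5, the smallest that 2 libraries allow. It was 2.70 with flanks of 100 kb and 3.44 with promoter windows of 1 kb. Under the same settings Etv5 had 2.71 and Gabpa 2.95, respectively, and all these ratios kept their sign in 7 of 7 libraries. Ehf could not be tested. The strongest OCR was picked on the same values, from 93 candidates at Etv6 and from 1 at Ets2, and a window with more candidates has more chances of a high one.

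The Elf4 pair is shown because its intronic element exceeded both of its promoters. The sequences are on the minus strand, the gene's own, from chrX:48454320-48454569, just upstream of the internal RefSeq start, and chrX:48433624-48433824, at the intronic summit (GRCm38.p6, RefSeq), and capitals have the meaning given above.
Elf4 internal promoter: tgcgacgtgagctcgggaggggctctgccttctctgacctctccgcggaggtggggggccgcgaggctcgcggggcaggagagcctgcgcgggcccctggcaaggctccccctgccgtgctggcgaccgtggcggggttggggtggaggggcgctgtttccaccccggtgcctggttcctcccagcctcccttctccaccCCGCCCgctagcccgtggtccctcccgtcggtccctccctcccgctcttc
Elf4 intronic OCR at 29.3 kb: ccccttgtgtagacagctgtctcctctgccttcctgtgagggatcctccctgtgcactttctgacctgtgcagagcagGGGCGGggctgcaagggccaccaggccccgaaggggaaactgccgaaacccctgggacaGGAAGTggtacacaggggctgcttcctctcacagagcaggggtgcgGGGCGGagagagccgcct
A piece of the strongest promoter of the group and the strongest distal element are also given. They come from chr16:22439720-22439820 (Etv5, minus strand) and chr3:51365343-51365543 (Elf2, minus strand). The Etv5 piece is the part of a RefSeq promoter without exons. That whole promoter, chr16:22439521-22439820, holds GGAAGT 0 times and GGGCGG 3 times. Another RefSeq promoter in the same OCR, chr16:22438319-22438618, holds GGAAGT 2 times and is not printed. The printed piece thus does not stand for the whole Etv5 promoter OCR.
Etv5 promoter: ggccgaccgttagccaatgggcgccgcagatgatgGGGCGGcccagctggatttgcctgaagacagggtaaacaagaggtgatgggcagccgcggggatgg
Elf2 distal OCR 24.7 kb upstream: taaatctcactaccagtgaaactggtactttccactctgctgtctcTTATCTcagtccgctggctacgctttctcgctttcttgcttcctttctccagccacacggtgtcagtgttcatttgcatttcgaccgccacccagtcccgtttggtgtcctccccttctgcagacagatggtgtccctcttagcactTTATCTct

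**Figure D3:**
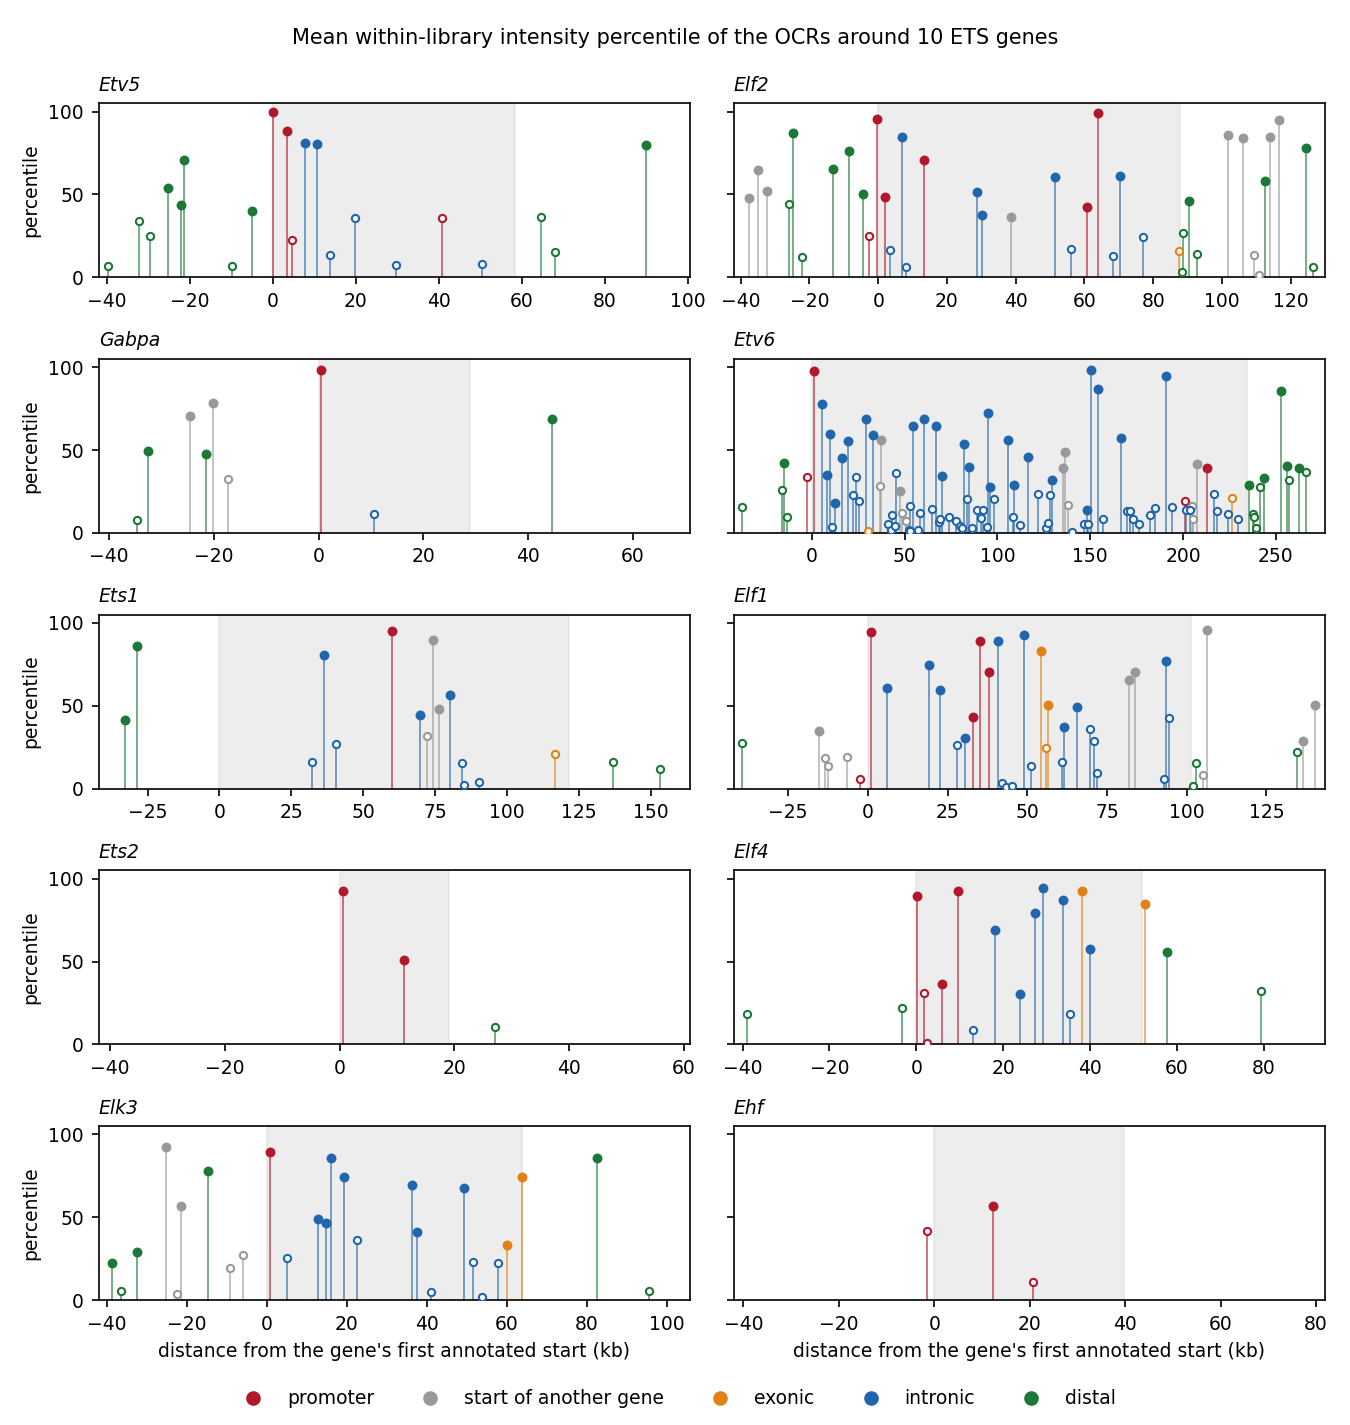
Mean within-library intensity percentile of every OCR (vertical axis) against the distance of its centre from the first annotated start in kb, in the direction of transcription, with the gene body in grey. Filled points are listed in all 7 libraries and open points in fewer. At Ets1 the promoter OCR sits 59.9 kb inside the gene, and Etv6 and Elf4 carry intronic OCRs as high as their promoters.

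By class, the 289 OCRs were 32 promoter, 42 at starts of other genes, 11 exonic, 142 intronic and 62 distal. Those listed in all 7 libraries numbered 138, or 47.8%, against 46.2% of all merged OCRs. At starts, 47 of 74 were listed in all 7 (63.5%, against 54.8% of all OCRs at starts), of which 22 were among the 32 promoter OCRs. Away from starts it was 91 of 215 (42.3%, against 41.9%). Away from starts, support by libraries in the ETS windows was therefore close to that of the series. A further 48 OCRs (16.6%, against 17.9% of all) appeared in 1 library, and 39 of those came from HPC7-1. Without HPC7-1 the windows held 266 OCRs, of which 51.9% were listed in all 6 remaining libraries, against 51.5% of all OCRs under the same setting. Whether an OCR is absent from a list or below the calling threshold cannot be told apart, and in the ETS windows the share of OCRs listed ranged from 51.9% in HPC7-6 to 95.8% in HPC7-1, against 53.4% and 91.0% of all OCRs.

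Intense OCRs away from starts, meaning among the top 25% in all 7 libraries, numbered 18 of 215 (8.37%, against 7.65% of all such OCRs). Elf4 and Etv6 had 4 each, Elf1 had 3, Elf2, Elk3 and Etv5 had 2 each, Ets1 had 1, and Ets2, Gabpa and Ehf had 0. At Elf4 these were 4 of 14 non-promoter OCRs and at Etv6 4 of 93. Of the 76 intronic OCRs of Etv6, 3 were intense in this sense. One of those at Elf4 covered an exon 38.2 kb into the gene and ranged from 47.7 to 82.1, a case picked out after its values were seen. Median percentile, averaged over libraries, was 76.6 ± 7.58 (SD, n = 7) for promoter OCRs, 42.1 ± 4.19 for intronic and 42.9 ± 2.35 for distal ones. The 11 exonic OCRs had 69.0 ± 7.96, and the 42 at starts of other genes had 49.6 ± 7.40.

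**Figure D4:**
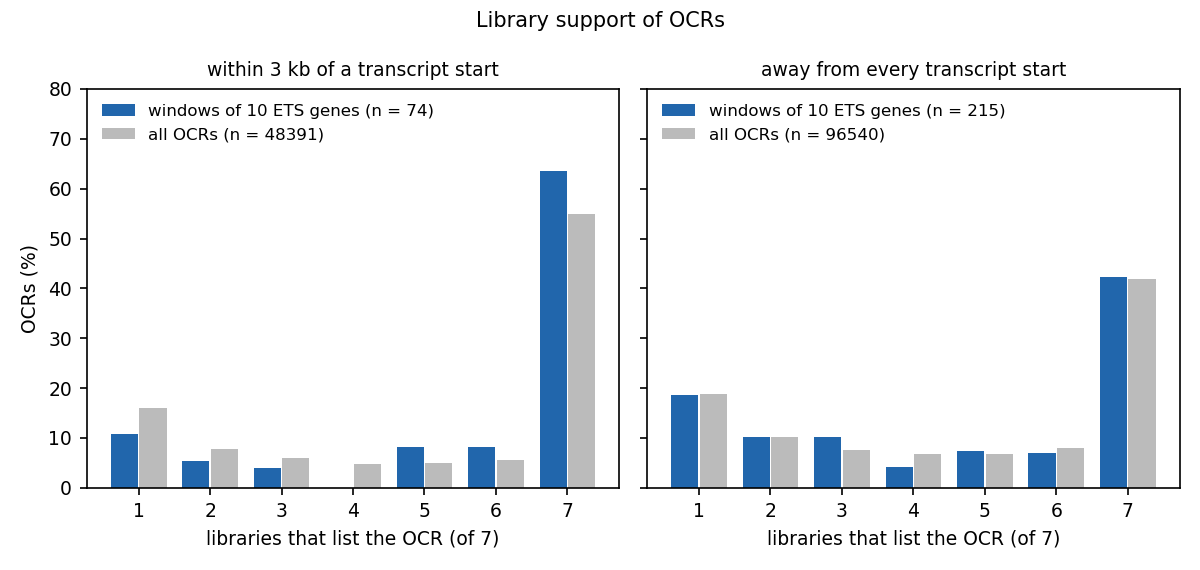
Share of OCRs (%) listed by 1 to 7 libraries, in the 10 ETS windows (blue) and in the whole series (grey), within 3 kb of a transcript start (left) and away from every start (right). Listing in all 7 libraries is the most common case on both sides, at 63.5% against 54.8% near starts and 42.3% against 41.9% away from them.

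Among other members of the family, 13 of 16 had a promoter OCR in all 7 libraries and 10 had one among the top 25% throughout, beside 61% and 50.6% of all protein-coding genes. Etv1 and Spic had none in any library, and Fev had one in 6. Of 14 that could be tested, the promoter was higher at 8 and the non-promoter OCR at 6, Erg (log2 ratio -1.40) and Fli1 (-0.69) among them, beside the 69.1% and 23.8% of all genes. Partners and regulators of ETS factors all had a promoter OCR among the top 25% in 7 of 7 libraries (13 of 13, beside the same 50.6%). The beta subunits of GABP, Gabpb1 and Gabpb2, had mean promoter intensities of 55.4 ± 9.27 and 114 ± 29.6 (SD, n = 7), both below the 159 ± 32.7 of Gabpa. Srf, which binds DNA with Elk3, had 226 ± 43.4, and Sin3a, a corepressor of Etv6, had 228 ± 45.9.

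Motif letters were counted on both strands in RefSeq promoters of 300 bases, found for 8 of the 10 members (12 entries; none for Ets1 and Ehf), and in 201 bases around the summit of the 91 non-promoter OCRs listed in all 7 libraries. The full ETS motif CCGGAAGT was found in 0 of 12 promoters and 0 of 91 summits, against 3.89% and 0.403% of all promoters and all such OCRs. Its last 6 letters, GGAAGT, which every match of the full motif also holds, occurred in 4 of 12 promoters and in 41 of 91 summits (45.1%), against 23.8% and 29.6%. Among the windows printed, both leading intronic elements, of Etv6 and of Elf4, hold it once.

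The SP/KLF letters GGGCGG occurred in 9 of 12 promoters, against 35.7%, and in 7 of 91 summits, against 5.86%. RUNX letters TGTGGTT occurred in 0 of 12 and 11 of 91, against 5.27% and 14.2%. GATA letters AGATAA occurred in 0 of 12 and 15 of 91, against 11.2% and 17.8%. AP-1 letters TGANTCA occurred in 3 of 12 and 8 of 91, against 7.81% and 13.1%. E-box letters CANNTG occurred in 4 of 12 and 64 of 91, against 72.3% and 70.4%. These counts are a description without a test, the 12 promoters come from 8 genes, and matches do not show binding. The promoter shares are over all 32851 RefSeq promoters, with or without an OCR, while each of the 8 genes had an intense promoter OCR.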

How the data were processed

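Bulk ATAC-seq was performed on HPC7 cells in 7 libraries of 1 group. According to the study's methods and the submitters' processing notes, the authors used Cutadapt for trimming and BWA for alignment (mm10), and MACS2 for peaks, library by library. Versions, options and any shift of reads for Tn5 are not given in the sources used here. The deposited lists hold fold enrichment (a ratio, used here), −log10 p and −log10 q values (the latter in 1 alternative), a score (not used) and the summit offset.

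Fold enrichments were whole multiples of 1 value per library (100% within 0.05 reads), which gave the background and summit reads. Peaks overlapping by at least 1 bp were merged over the libraries. GENCODE M21 gave 132758 transcript starts. An OCR that a library did not list was set to that library's lowest listed fold enrichment (1.68 to 2.44) in the comparison of 2 OCRs. The smallest p of 7 libraries passes the adjustment only because most genes reach it. Functions were tested on simulated data and against bedtools 2.31.1. Scripts ran under Python 3.11.15 with scipy 1.17.1, pysam 0.24.0, pandas 2.3.3, numpy 2.4.6 and matplotlib 3.10.9.

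Members, lists and motifs were chosen with earlier results of these data known. Text names all members, their promoter OCRs listed in all 7 libraries, the strongest non-promoter OCR of each, the top 3 intronic and distal OCRs, and listed ETS genes and partners. Trac is not a protein-coding entry of the annotation and was left out. Alternatives were the promoter window, flank, OCR choice, absent values, −log10 q of at least 5, equal list sizes, RefSeq starts and leaving out each library. The p-values measure only the spread between these libraries.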

Additional observations from a re-analysis of the deposited data

How the results depend on the processing

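Across alternatives, 43 summary values kept their direction and their side of the threshold or, for counts, stayed within 1.5 times the reported count, and 1 moved. Of the values of single members, with percentiles held to the SD between libraries instead, 316 were kept, 19 moved (10 percentiles and 9 OCR counts), 1 lost its call (Ets2, with 2 libraries left) and 1 reversed (Etv6). Taking the same 84593 most intense OCRs from every library raised the share of the members' OCRs listed in all libraries from 47.8% to 62.5% (125 of 200), with the series at 58.9%. Leaving out each library in turn gave 47.8% to 52.9%. Counts over the 10 windows then ran from 266 to 289, and were 421 with flanks of 100 kb, 244 with flanks of 20 kb and 200 with equal lists. Without each library in turn, members with a promoter OCR among the top 25% stayed at 9, and members with the promoter higher stayed at 7. The latter number was 8 of 10 tested with promoter windows of 1 kb, where Ehf could be tested, 8 of 9 with RefSeq starts added, 7 of 10 with flanks of 100 kb, and 6 of 9 where libraries without both OCRs were left out. The non-promoter OCR was higher at 1 member with RefSeq starts and at 2 under the other settings. Adding RefSeq starts, an alternative chosen after seeing the data, turned the Etv6 ratio from -0.23 to 0.60 on the log2 scale, because the OCR at 150.7 kb holds the start of Gm52920. Percentiles among promoter OCRs alone moved all 10 members downwards, from 99.8 to 99.4 at Etv5 and from 56.7 to 43.3 at Ehf, and 8 members instead of 9 then stood in the top 25% throughout. With equal lists Etv6 held 65 OCRs and Ets1 11, while a flank of 100 kb gave Ets2 15 and Ets1 32. No paired analysis was possible between groups because there was 1 group, while OCRs were compared within each library. The lowest listed fold enrichment was 1.68 in HPC7-1 and 2.13 or more elsewhere, and what part depth has in which weak OCRs are listed was not tested.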

Other observations

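Some intense OCRs in the ETS windows lay at starts of noncoding RNAs and were picked out after their values were seen. One lay 74.2 kb into Ets1 at the start of Gm27240 (chr9:32709181-32711646) and ranged from 35.4 to 65.4. Another lay 25.2 kb upstream of Elk3 at the start of Gm17745 (chr10:93334962-93337635) and ranged from 48.3 to 85.2, above the 37.5 to 64.1 of the Elk3 promoter at both ends of the range. In the RefSeq annotation, 17 of the 215 non-promoter OCRs lay within 3 kb of a transcript start that GENCODE M21 does not hold. None of 29 measures of the members had a library standing apart from the other 6 by Dixon's criterion.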
